A study of Mus musculus with 28 samples.

Results

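CNS3-deleted and wild-type splenic aTreg cells, the activated regulatory T (Treg) cells of the spleen, were compared by RNA sequencing of 4 KO and 3 WT libraries, chosen by their sample titles from the 28 libraries of the series. Treg cells are CD4+ T cells that restrain immune responses, and the transcription factor Foxp3 defines the lineage. CNS3 is a conserved noncoding element in an intron of Foxp3 that is bound by the NF-kB subunit c-Rel and is known to raise the chance that Foxp3 is switched on in thymic precursors. Once Foxp3 is on, other elements of the locus are known to keep it on, and activated Treg cells then gain homing receptors, ICOS, KLRG1 and IL-10.

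The WT libraries came from male Foxp3-gfp mice and the KO libraries from male Foxp3ΔCNS3-gfp mice, aged 6 to 8 weeks and described as littermates. Both genotypes carried the gfp reporter allele, and no group received a treatment. Cells of the other 3 populations were splenic rTreg (resting), thymic Treg and thymic mCD4SP cells, each again with 3 WT and 4 KO libraries. The deletion is in the germline, so the cells developed without CNS3 from the start. The labels do not say that the libraries of a group came from separate mice. The p-values therefore measure the spread between libraries within groups, estimated over all 28 libraries of the series, and part of it may be technical. The cells were sorted, extracted and amplified in parallel, and the labels name no batch.

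Each aTreg library held 22037995 to 31239148 reads counted in genes. Levels are given as CPM, the counts of a gene scaled to a common depth, with library sizes adjusted by the TMM method, and differences as log2 fold changes of KO against WT with their standard error (SE). The 2 groups overlapped in depth. Of the reads placed once, 45.95% ± 0.74 (SD, n = 4) fell outside genes in KO libraries and 46.9% ± 1.1 (SD, n = 3) in WT libraries, and the difference of -0.947 percentage points gave a two-sided exact permutation p of 0.2286, where the smallest possible p is 0.0286. The label was checked in WT cells against rTreg cells. All 9 activated markers (such as Il10, Klrg1, Icos and Gzmb) were higher and all 8 resting markers (such as Ccr7, Lef1 and Tcf7) were lower in aTreg cells by edgeR's quasi-likelihood test at an adjusted p of 0.05, where 37.9% of the 13338 genes tested were called, 19.9% higher and 18.1% lower. The Treg and CD4 T cell markers Foxp3, Il2ra, Ctla4, Cd3e and Cd4 were detected in every aTreg library, and the lowest value among them was 491.6 CPM, for Foxp3 in KO library 1.

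The promoters of the genes on which the comparison turns are shown first, from RefSeq (GRCm38.p6), each as 250 bases before to 50 bases after the annotated start, read 5′ to 3′ along the gene. Dnahc7a, Fsd1l, Klf6 and Capn11 are the 4 genes that passed the test, and Dusp1 stands beside Klf6 as a second immediate-early gene that was higher in every KO library. Capitals mark matches, on either strand, to 3 motifs, whose matches do not overlap each other in these windows. These were the cyclic AMP response element TGACGTCA, the AP-1 site TGANTCA and the GC box GGGCGG, with N for any base. Of 32851 promoter windows of this length, 1.79% held the first, 7.81% the AP-1 site and 35.7% the GC box.
Klf6: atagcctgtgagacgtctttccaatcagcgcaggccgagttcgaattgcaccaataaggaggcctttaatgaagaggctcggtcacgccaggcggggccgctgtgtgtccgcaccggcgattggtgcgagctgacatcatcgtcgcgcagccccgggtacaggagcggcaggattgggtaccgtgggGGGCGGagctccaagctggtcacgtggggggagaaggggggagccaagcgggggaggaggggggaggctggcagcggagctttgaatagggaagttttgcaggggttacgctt
Dusp1: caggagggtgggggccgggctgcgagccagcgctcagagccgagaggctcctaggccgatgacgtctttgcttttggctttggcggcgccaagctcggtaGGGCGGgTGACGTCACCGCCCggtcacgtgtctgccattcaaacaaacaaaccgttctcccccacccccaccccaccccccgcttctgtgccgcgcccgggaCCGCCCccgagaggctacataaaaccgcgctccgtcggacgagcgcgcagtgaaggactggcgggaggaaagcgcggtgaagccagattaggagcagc
Dnahc7a: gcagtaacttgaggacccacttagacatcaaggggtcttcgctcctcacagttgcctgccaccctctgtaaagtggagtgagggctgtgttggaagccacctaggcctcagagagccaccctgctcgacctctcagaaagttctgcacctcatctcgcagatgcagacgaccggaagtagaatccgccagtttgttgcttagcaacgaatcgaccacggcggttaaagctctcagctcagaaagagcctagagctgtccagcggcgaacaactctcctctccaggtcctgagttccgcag
Fsd1l: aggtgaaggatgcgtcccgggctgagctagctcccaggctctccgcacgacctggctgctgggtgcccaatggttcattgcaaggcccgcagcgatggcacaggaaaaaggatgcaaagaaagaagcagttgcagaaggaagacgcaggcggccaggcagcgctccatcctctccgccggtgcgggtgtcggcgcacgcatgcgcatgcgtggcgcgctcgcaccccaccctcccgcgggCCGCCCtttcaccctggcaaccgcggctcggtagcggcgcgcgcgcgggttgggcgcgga
Capn11: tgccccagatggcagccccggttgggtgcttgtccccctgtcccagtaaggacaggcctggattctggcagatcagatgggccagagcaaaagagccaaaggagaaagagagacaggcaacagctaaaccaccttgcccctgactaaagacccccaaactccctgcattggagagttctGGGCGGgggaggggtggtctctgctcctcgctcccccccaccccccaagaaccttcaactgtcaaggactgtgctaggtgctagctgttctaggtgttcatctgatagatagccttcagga

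The windows lie at chr13:5861239-5861538 (plus strand), chr17:26508423-26508722 (minus), chr1:53706735-53707034 (minus), chr4:53631174-53631473 (plus, the first of 2 listed starts) and chr17:45659260-45659559 (minus). Klf6, Fsd1l and Capn11 each held 1 GC box. Dusp1 held 1 cyclic AMP response element and 3 GC boxes, and none of the 5 windows held the AP-1 site. Dnahc7a held no match to the motifs searched. A match describes the letters of the window and is not evidence of binding.

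Foxp3 mRNA (chrX:7573644-7595245, plus strand, GRCm38) was counted at 653.8, 586.8 and 595.0 CPM in the WT libraries and at 491.6, 520.1, 549.8 and 513.2 CPM in the KO libraries. Every KO library was below every WT library. The difference was -0.24 (SE 0.087, 95% interval -0.42 to -0.06), which had an unadjusted p of 0.01067 and an adjusted p of 0.5563 by edgeR's quasi-likelihood test, so it did not pass over all genes. The Foxp3 effect was -0.18 in rTreg and -0.26 in thymic Treg cells. The deleted element is noncoding, so the Foxp3 count does not check the genotype labels. Its 3′ end overlaps Ccdc22 on the other strand (chrX:7593809-7605517), and the sources used here do not say whether counting used strand. In sorted bulk cells, fewer cells carrying a transcript and less of it per cell cannot be told apart.

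Across the transcriptome, 4 of 13338 genes tested differed between KO and WT aTreg cells at an adjusted p under 0.05 (0.0300%). Dnahc7a, Fsd1l and Klf6 rose (0.0225%) and Capn11 fell (0.00750%). At an unadjusted p under 0.05 there were 898 genes (6.73%), 498 higher (3.73%) and 400 lower. KO and WT libraries did not overlap for 1084 genes (8.13%), 547 higher (4.10%) and 537 lower (4.03%). The median log2 fold change was 0.0022 and the median size was 0.10. For 8938 genes (67.1%) the 95% interval lay within 1.5-fold in both directions, and for 10517 (79.0%) within 2-fold. In KO against WT rTreg cells, the same test called 18 genes (0.135%), and in thymic Treg cells 1246 (9.34%).

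**Figure D1:**
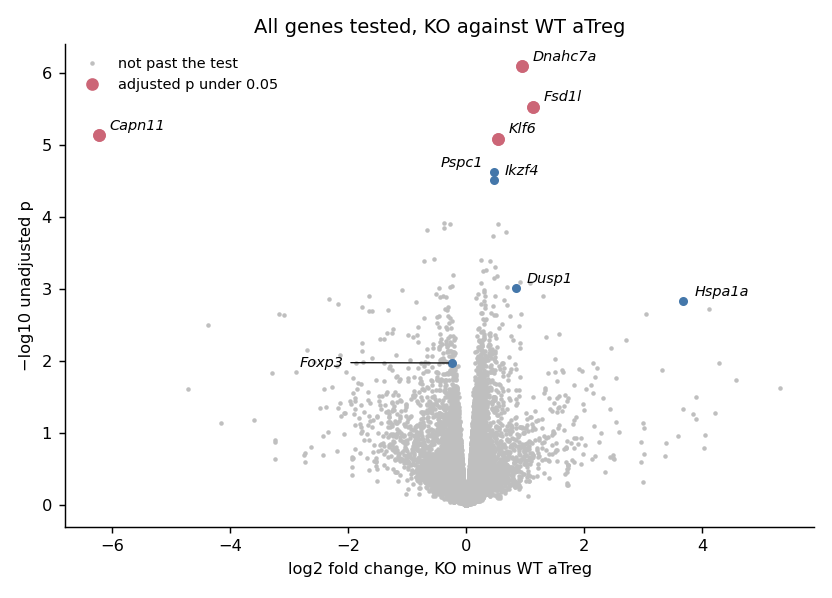
Each of the 13338 genes tested is 1 point, with the log2 fold change of KO minus WT aTreg cells on the x axis and −log10 of the unadjusted p on the y axis. The 4 genes with an adjusted p under 0.05 are in red, and blue points name Foxp3, Ikzf4, Pspc1, Dusp1 and Hspa1a, which did not pass.

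Dnahc7a (Dnah7a in the annotation, chr1:53397006-53706784, minus strand) encodes an axonemal dynein heavy chain, a motor protein of cilia. It was counted at 13.0, 12.19 and 14.05 CPM in the WT libraries. The KO libraries gave 24.92, 26.78, 23.5 and 25.58 CPM, all above every WT library and closely grouped. The rise was 0.95 (SE 0.149, 95% interval 0.64 to 1.25, adjusted p 0.01059 by edgeR's quasi-likelihood test), or 1.93-fold. Dnahc7a was also higher in KO rTreg (1.13) and KO thymic Treg cells (1.5), while the 7 mCD4SP libraries held 0 to 5 counts each. Its near-identical copy Dnahc7b held 0 to 4 counts in any aTreg library. Because reads that map to more than 1 place were not counted in genes, the split between the copies is uncertain.

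Fsd1l (chr4:53631471-53707009, plus strand), a fibronectin type III and SPRY domain gene, was the lowest of the 3 genes that rose. WT libraries held 3.11, 3.17 and 4.52 CPM and KO libraries 5.92, 9.01, 7.51 and 9.09 CPM. The groups did not overlap, and KO library 1 lay nearest to the WT libraries. The rise was 1.13 (SE 0.194, adjusted p 0.01948), or 2.19-fold, beside 0.85 in rTreg and 0.85 in thymic Treg cells.

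Klf6 (chr13:5861482-5870394, plus strand) encodes a Kruppel-like zinc finger factor that is induced early after stimulation or stress in many cells. It was counted at 372.2, 286.7 and 324.1 CPM in WT and at 450.6, 428.6, 514.2 and 518.5 CPM in KO libraries. KO libraries 3 and 4 were highest, and the lowest KO library was above the highest WT library. The rise was 0.54 (SE 0.0996, adjusted p 0.02734), or 1.46-fold, beside 0.61 in rTreg and 0.31 in thymic Treg cells.

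Capn11 (chr17:45630204-45659325, minus strand), a calpain-family protease gene best known from testis, was the 1 gene that fell. The difference was -6.22 (adjusted p 0.02734 by edgeR's test), and Capn11 did not pass with DESeq2 or limma-voom. The WT libraries held 18, 72 and 57 reads and the KO libraries 0, 0, 2 and 0. The WT to KO ratio of summed, depth-scaled counts was 90.2 (95% interval 24.5 to 752, for counting error only). KO library 3 was also the KO library with reads in rTreg cells (4) and in thymic Treg cells (10), while KO libraries 1, 2 and 4 held 0 in all 3 Treg populations. The ratio was 84.1 (32.5 to 311) in rTreg and 41.6 (22.4 to 87.5) in thymic Treg cells. WT library 1 was the lowest of the aTreg WT libraries, at 0.608 CPM, with 2.65 and 1.89 CPM in libraries 2 and 3.

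All 4 genes were also past the threshold in rTreg and in thymic Treg cells with the same direction. The count in aTreg cells rested on single libraries. Without WT library 2, 0 genes passed edgeR's test, with 809 at an unadjusted p under 0.05; no other tool was run on that set. Without KO library 4 there was 1, without WT library 3 or any of KO libraries 1, 2 and 3 there were 2, and without WT library 1 there were 6. No gene within 1 Mb of the 4 genes passed the test beside them. Around Capn11, 3 of 26 tested (Gtpbp2, Slc29a1 and Srf) were lower and 0 higher without overlap, against 4.03% and 4.10% of all genes. Of these 26, 0 had an unadjusted p under 0.05 by edgeR's test, and their median was -0.01. Around Dnahc7a, 2 of 14 were lower and 1 higher without overlap. There, 3 had an unadjusted p under 0.05 by edgeR's test, against 6.73% of all genes. Around Fsd1l (6 tested) and Klf6 (2 tested) there were 0 by either measure.

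**Figure D2:**
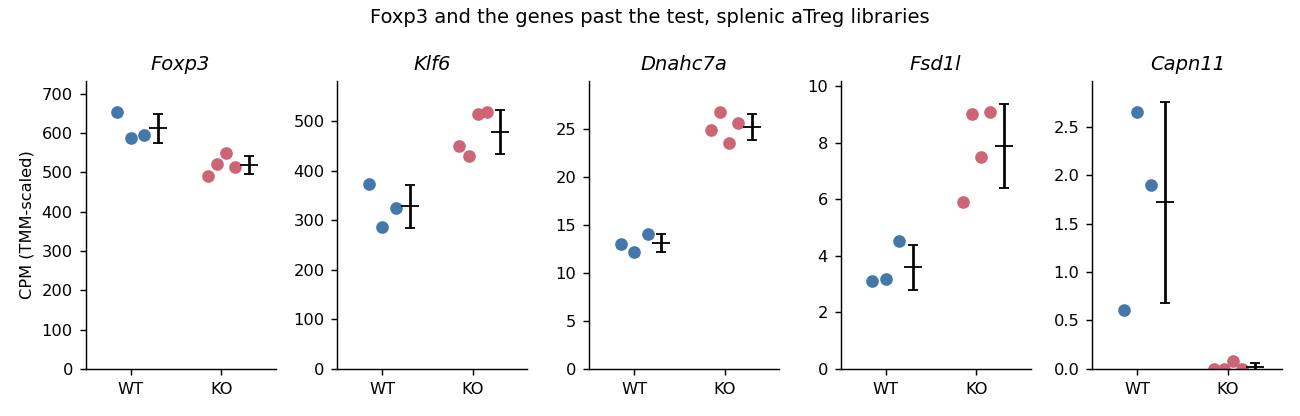
CPM (y axis, linear from 0, a separate scale for each gene) of Foxp3, Klf6, Dnahc7a, Fsd1l and Capn11 in the 3 WT and 4 KO aTreg libraries. Points are libraries, black marks the mean ± SD, and in all 5 panels the groups do not overlap.

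Immediate-early and heat shock genes, which respond within minutes to stimulation and also to tissue handling, were the group nearest to Klf6. Of 24 tested, Klf6 passed. Another 8 (34.8% of the 23 without Klf6) had an unadjusted p under 0.05. All 9 were higher in KO cells, where 3.73% of all genes were higher at that p. In this list 8 genes (33.3%) were higher and 2 (8.33%) lower without overlap, against 4.10% and 4.03% of all genes. Its median was 0.16 against 0.0022 over all genes, beside 0.19 in rTreg and 0.15 in thymic Treg cells. Without Klf6, 7 of 23 (30.4%) were higher and 2 (8.7%) lower without overlap, and the list's median was again 0.16. The summed level of the 24 genes was 4147 to 4405 CPM in WT and 4403 to 5448 CPM in KO libraries, with KO libraries 3 and 4 highest at 5339 and 5448 CPM. Without Klf6 the sum was 3775 to 4081 CPM in WT and 3974 to 4929 CPM in KO libraries, and both sums overlapped between groups.

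Dusp1, a phosphatase that shuts off MAP kinases, was counted at 234.9, 145.5 and 89.05 CPM in WT libraries and at 293.2, 292.7, 268.7 and 274.4 CPM in KO libraries. The WT libraries varied more than the KO libraries, and the difference was 0.85 (SE 0.231, adjusted p 0.3995). Jun, an AP-1 subunit, was at 136.8, 111.4 and 139.5 CPM in WT and 207.5, 170.0, 250.1 and 234.7 CPM in KO libraries, a difference of 0.74 (adjusted p 0.4258). Its partners Fos and Fosb differed by 0.84 and 0.90 and did not overlap between groups, with KO libraries 3 and 4 far above the rest. Fosb, for example, was at 21.37, 17.13 and 16.75 CPM in WT libraries, 22.29 and 23.8 CPM in KO libraries 1 and 2, and 42.76 and 48.8 CPM in KO libraries 3 and 4. Junb differed by 0.56 with overlapping groups.

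Hspa1a, an inducible heat shock chaperone gene, had the largest difference of the list, 3.69 (SE 1.04, adjusted p 0.4092). Its WT libraries held 3.75, 0.626 and 8.64 CPM and its KO libraries 29.01, 15.99, 73.05 and 107.6 CPM. Hspa1b, its near-identical copy, differed by 3.04, and reads can be split between the copies. Summed, the copies held 1.03 to 13.56 CPM in WT and 22.97 to 145.0 CPM in KO aTreg libraries. In thymic mCD4SP cells, which are conventional CD4 T cells, the sum was 0.378 to 9.44 CPM in WT and 8.51 to 58.92 CPM in KO libraries. In each of the 4 populations, library 2 was the lowest WT library and library 4 the highest KO library in this sum.

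With the summed level of this list without Klf6 added as a covariate, an alternative chosen after seeing the data, 8 genes passed, 3 of them among the 4. Klf6 had a difference of 0.43 with an adjusted p of 0.05492 there. Without KO libraries 3 and 4, chosen in the same way, 1 gene passed, which was none of the 4, and Klf6 had 0.42 with an adjusted p of 0.4062. Whether handling had a part in the rise of Klf6 was not tested.

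**Figure D3:**
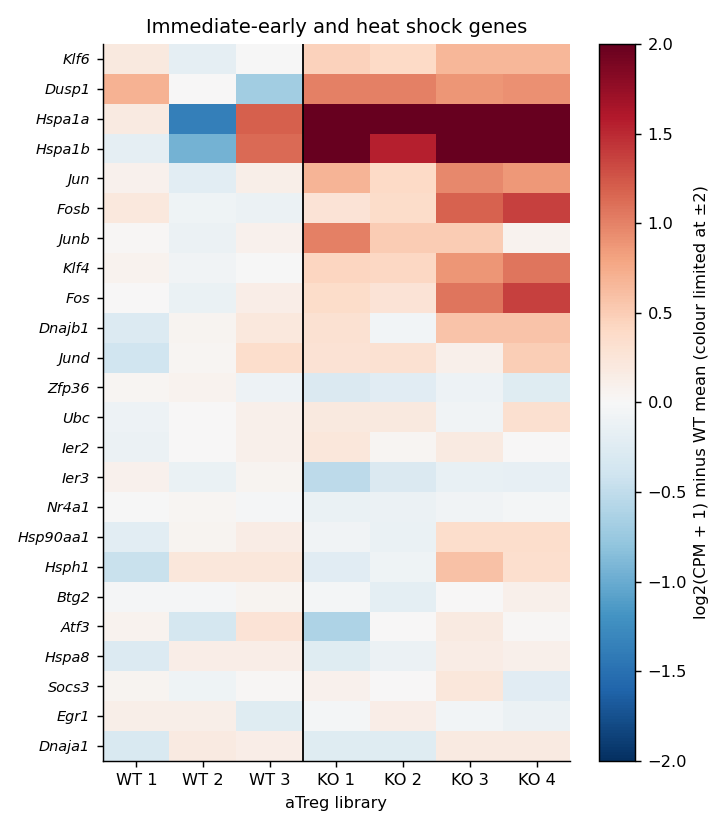
Colour shows log2(CPM + 1) of each gene minus its WT mean, with the colour limited at ±2, for 24 immediate-early and heat shock genes (rows, by p) in the 7 aTreg libraries (columns). Klf6, Dusp1, Hspa1a, Hspa1b and Jun are red in all 4 KO libraries, while most lower rows, such as Egr1 and Nr4a1, are near white.

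Other Kruppel-like factors did not pass. Of 13 members tested, Klf6 was the 1 called. At an unadjusted p under 0.05 by edgeR's test, 4 (30.8%) were higher (Klf2, Klf4, Klf6 and Klf11) and 1 (7.69%) lower (Klf10). Of all genes, 3.73% were higher at that p, and 400 of 13338 were lower. Without overlap, 3 (23.1%) were higher, Klf6 among them, and 0 lower, against 4.10% and 4.03% of all genes. Klf2, which keeps T cells quiescent and in circulation, was at 20.12, 22.87 and 28.34 CPM in WT and 26.65, 29.7, 35.71 and 42.13 CPM in KO libraries (0.50, adjusted p 0.5231). Klf4 differed by 0.77 and Klf11 by 0.52 without overlap of the groups, neither past the test. Klf10, a TGF-beta induced member, differed by -0.19, and Klf13, the member with the most reads, by -0.03. The family's median was -0.0033.

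The 20 genes with the smallest p beyond the 4 had adjusted p-values of 0.06342 to 0.3995 by edgeR's test, 13 higher and 7 lower. None overlapped between groups, which the choice by p itself favours, and 8.13% of all genes did not overlap. Ikzf4 encodes Eos, a partner of Foxp3 in gene silencing. Its WT libraries held 171.8, 140.9 and 123.9 CPM and its KO libraries 213.5, 200.1, 195.9 and 198.0 CPM. KO libraries were tight and the WT libraries spread, with a difference of 0.47 (SE 0.0948, 95% interval 0.28 to 0.67, adjusted p 0.06905). Ikzf4 passed in 7 of 19 alternatives, among them DESeq2 (adjusted p 0.006085) and limma-voom (0.03009).

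Pspc1, a paraspeckle protein gene, had 20.86, 23.68 and 19.44 CPM in WT and 29.32, 29.98, 29.41 and 29.29 CPM in KO libraries. The KO libraries differed little from each other, and the difference was 0.47 (adjusted p 0.06342). Il18r1, a receptor chain for IL-18, was at 45.95 to 48.18 CPM in WT and 59.88 to 69.5 CPM in KO libraries (0.46), and it was among the genes called in rTreg cells (0.85). Itgb1, the integrin beta 1 chain, was at 153.8 to 179.2 CPM in WT and 215.8 to 246.2 CPM in KO libraries (0.50, adjusted p 0.3627). Its values in rTreg and thymic Treg cells were 0.47 and 0.51. Ttn, the giant sarcomere protein gene, was at 81.07 to 125.2 and 137.9 to 279.6 CPM (0.91).

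On the lower side, Lgmn, a lysosomal cysteine protease gene, was at 147.9, 147.8 and 162.4 CPM in WT and 114.8, 119.8, 132.7 and 103.0 CPM in KO libraries (-0.38, SE 0.0844, adjusted p 0.1813). Ctsz, another lysosomal protease gene, was at 184.3 to 190.4 and 157.3 to 167.5 CPM (-0.22, adjusted p 0.3979). Both are also expressed by myeloid cells, whose marker sum was lower in KO cells, at 257.1 to 302.0 CPM against 360.2 to 468.9 CPM in WT libraries. Of the 17 myeloid markers tested, none passed, 4 (23.5%) were lower without overlap, against 4.03% of all genes, and the median was -0.67. Lyz2 held 8281 reads over the 3 WT and 3922 over the 4 KO libraries, Csf1r held 2791 and 2022, and none of the 17 was at 0 in either group. The part of such cells in these differences was not tested. Tubb2a, a beta tubulin gene, differed by -0.66 and Syp, the synaptic vesicle protein synaptophysin, by -0.71, beside -0.70 and -1.26 in rTreg cells.

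Genes of Treg identity were on both sides of 0. Of 24 tested, none passed, 14 were above 0 and 10 below, and the median was 0.06. Ctla4, the inhibitory receptor of Treg cells, was at 1199, 1212 and 1208 CPM in WT and 1050, 1098, 1076 and 1042 CPM in KO libraries (-0.18, adjusted p 0.88). Its groups did not overlap although the difference was small. Ikzf2 (Helios, 0.21), Il2ra (the IL-2 receptor alpha chain, -0.06) and Tnfrsf18 (GITR, -0.04) overlapped between groups.

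Among 37 genes of activated Treg cells, none passed, 23 were below 0, 5 (13.5%) were lower and 2 (5.41%) higher without overlap, against 4.03% and 4.10% of all genes, and the median was -0.08. Icos, a co-stimulatory receptor, was at 1901, 2002 and 2140 CPM in WT and 1690, 1802, 1789 and 1676 CPM in KO libraries (-0.21, SE 0.0733, adjusted p 0.5402). Irf4, a transcription factor of effector Treg cells, differed by -0.32 (adjusted p 0.5563), with 108.9 to 137.1 CPM in WT and 86.28 to 106.7 CPM in KO libraries. Il1rl1, which encodes the IL-33 receptor ST2, went the other way, with 19.92, 24.72 and 24.52 CPM in WT and 32.17, 36.42, 30.34 and 30.19 CPM in KO libraries (0.49, adjusted p 0.5563). Il1rl1 was past the test in rTreg (0.91) and thymic Treg cells (1.07). Klrg1, Prdm1, Il10 and Ccr8 differed by -0.27, -0.14, -0.10 and -0.05 with overlapping groups. In 21 resting T cell genes the median was -0.02 and none passed.

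Suppressive mediators (17 tested) also held no gene past the test and had a median of 0.04. Gzmb, which encodes granzyme B, ranged from 141.6 to 210.1 CPM in WT and from 109.7 to 207.8 CPM in KO libraries, a spread larger than the difference of -0.30. Lgals1, which encodes galectin-1, differed by -0.27, and WT library 3 stood above all others at 579.0 CPM.

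The NF-kB pathway, to which the CNS3-binding c-Rel belongs, had 21 of its 25 genes above 0, none past the test and none without overlap of the groups. Of all 13338 genes, 6758 were above 0. The pathway's median was 0.06, beside -0.04 in rTreg and -0.03 in thymic Treg cells. Rel, which encodes c-Rel, differed by 0.17, Tnfaip3, the inhibitor A20, by 0.30 and Prkcq, the kinase PKC-theta, by 0.15. In the IL-2 and STAT5 list of 17 genes, Socs1, a feedback inhibitor of cytokine signalling, differed by 0.72. It was at 9.72, 8.84 and 6.94 CPM in WT and 14.37, 19.04, 12.04 and 10.59 CPM in KO libraries, without overlap and with an adjusted p of 0.5563. Jak3, the kinase of the common gamma chain, differed by 0.33, and the list's median was 0.03.

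Homing and adhesion genes numbered 32, with none past the test and a median of 0.03. Without overlap, 5 (15.6%) were lower and 2 (6.25%) higher, against 4.03% and 4.10% of all genes. The lower ones were Ccr2, Ccr3, Ccr4, Ccr9 and Itgb2. Beside Itgb1, Cxcr4, the receptor for CXCL12, was at 23.87 to 26.7 CPM in WT and 28.24 to 48.61 CPM in KO libraries (0.61, adjusted p 0.5563). Of 25 co-stimulatory and checkpoint receptors, Cd96 had the smallest p, at 241.7 to 268.5 CPM in WT and 274.3 to 321.4 CPM in KO libraries (0.20, adjusted p 0.3995). Cd160 differed by 0.50. None of the 25 passed, and without overlap 4 (16%) were lower (Cd28, Icos, Ctla4 and Havcr2) and 3 (12%) higher. The CD8 T cell marker sum was higher in KO cells, at 323.2 to 458.0 against 267.6 to 285.2 CPM, and most of the sum was Ccl5, a chemokine that activated Treg cells also make, with 16015 reads over the 3 WT and 31038 over the 4 KO libraries (0.64). The median of the 7 markers was 0.05, and Cd8a and Eomes differed by -0.27 and -0.33. The part of other cells in Cd160 and Ccl5 was not tested.

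In T cell receptor signalling (27 genes, median 0.0065), Ptpn22, a phosphatase that dampens the receptor, was at 326.0 to 393.9 and 414.1 to 442.4 CPM (0.25, adjusted p 0.4258). Early genes induced through the receptor numbered 28, with 8 (28.6%) higher and 1 (3.57%) lower at an unadjusted p under 0.05, where 3.73% of all genes were higher, and a median of 0.10. They share 9 genes with the handling list, 5 above 0 (Jun, Fos, Fosb, Junb and Ier2) and 4 below (Ier3, Zfp36, Nr4a1 and Egr1). Helper lineage (21 genes), apoptosis (23), interferon response (33), glycolysis and nutrient (22) and ribosomal protein genes (79) held none past the test, and their medians were 0.0017, -0.02, -0.03, -0.04 and 0.02.

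Cell cycle genes had the lowest median of the T cell programmes, -0.24, with none past the test. Of 34 tested, 32 were below 0, where 6563 of all 13338 genes were. Without overlap, 4 (11.8%) were lower and 0 higher, against 4.03% and 4.10% of all genes. Birc5, which encodes the mitotic protein survivin, was at 38.86, 42.47 and 63.49 CPM in WT and 32.7, 37.5, 34.58 and 32.0 CPM in KO libraries (-0.50, SE 0.19, adjusted p 0.5824). WT library 3 was the highest. The list's summed level was 1808, 2103 and 2366 CPM in WT and 1726, 1951, 1833 and 1924 CPM in KO libraries, which overlap. In rTreg and thymic Treg cells the list's medians were 0.12 and 0.39.

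Around Foxp3, 31 genes within 1 Mb were tested and none passed. Their median was -0.02, and 5 (16.1%) were lower and 0 higher without overlap of the groups, against 4.03% and 4.10% of all genes. Ccdc22, whose product acts in endosomal sorting and NF-kB regulation and whose 3′ end overlaps Foxp3, was at 16.41, 20.04 and 16.41 CPM in WT and 13.13, 13.23, 13.68 and 11 CPM in KO libraries (-0.47, SE 0.126, adjusted p 0.3995). Its values in rTreg and thymic Treg cells were -0.55 and -0.38. The others were Syp (-0.71), 4930524L23Rik (-0.36), Ppp1r3f, a glycogen-targeting phosphatase subunit gene (-0.31), and Suv39h1, a histone H3 methyltransferase gene (-0.22).

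The genes called in rTreg cells were read in aTreg cells. The splenic contrasts use different libraries, but libraries with the same number may come from the same mice, which the labels do not give; the fit treats them as independent. Of the 11 genes higher in KO rTreg cells, 9 were above 0 in aTreg cells, 6 were higher without overlap and 3 passed, with a median of 0.44 in aTreg and 0.85 in rTreg cells. Of the 7 lower genes, 6 were below 0, 4 were lower without overlap and 1 passed, with medians of -0.27 and -0.48. Choosing genes by the rTreg test itself favours larger effects in rTreg cells, so these medians do not compare the size of the effects. Of all genes tested, 4.10% were higher and 4.03% lower without overlap in aTreg cells, and 0.0225% and 0.00750% passed in those directions. Ccr8, a chemokine receptor of tissue Treg cells, was at 179.8, 217.8 and 190.8 CPM in WT and 177.4, 204.5, 184.5 and 189.0 CPM in KO aTreg libraries (-0.05), beside 0.65 in rTreg cells.

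No gene passed the test of the difference between the aTreg and the rTreg effect (0.00% of those tested by edgeR's quasi-likelihood test). There were 617 at an unadjusted p under 0.05, DESeq2 called 1 and limma-voom 0. Ccr8 had the smallest p, with a difference of -0.71 and an adjusted p of 0.5809. Next were Phf1, a Polycomb-associated protein gene (0.59), Ptgfrn (1.45), Trim8 (0.43) and Ctsz. A difference that misses the threshold does not show that the deletion had the same effect in both populations.

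**Figure D4:**
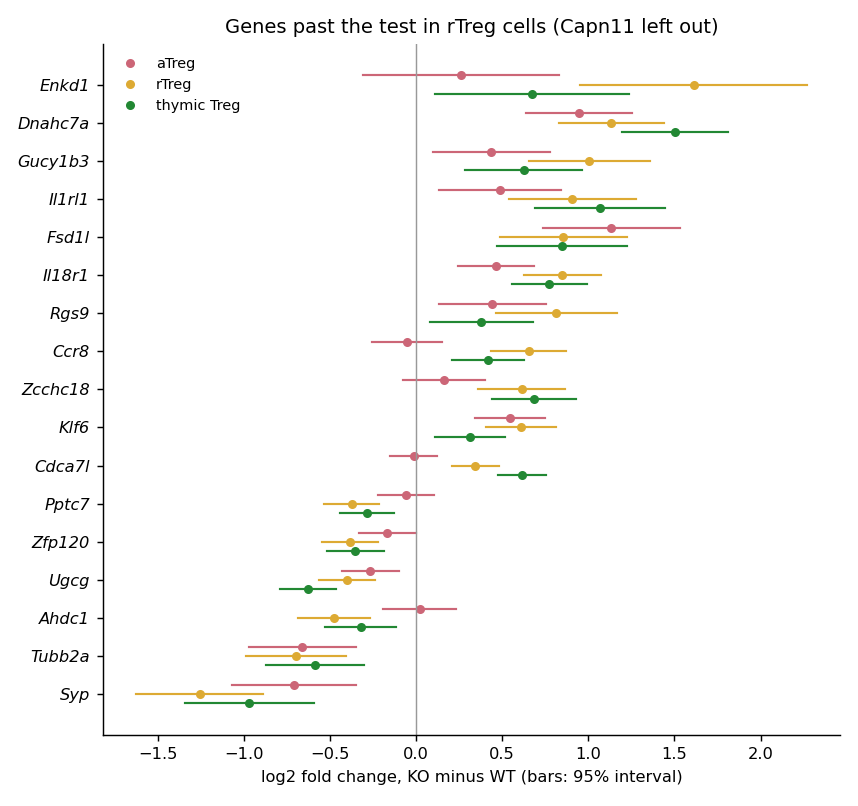
Log2 fold change of KO minus WT (x axis) with its 95% interval for 17 of the 18 genes called in rTreg cells, in aTreg (red), rTreg (yellow) and thymic Treg cells (green). Capn11 is left out, since its KO libraries are nearly all at 0. Ccr8, Cdca7l, Pptc7 and Ahdc1 lie near 0 in aTreg cells.

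The aTreg effect differed from the thymic Treg effect for 113 genes (0.847%), 48 with a higher (0.360%) and 65 with a lower value (0.487%) in aTreg cells. With upper-quartile scaling the split was 35 and 77. The 65 genes had a median of -0.18 in aTreg and 0.70 in thymic Treg cells, and the 48 had 0.10 and -0.42. Choosing genes by this difference itself sets such medians apart. None of the 113 passed in aTreg cells alone. The 1246 genes called in thymic Treg cells, which include all 4 called in aTreg cells, had small medians in aTreg cells, 0.03 for the 562 higher (332 above 0) and -0.02 for the 684 lower genes (407 below 0). Of the 562, 49 (8.72%) were higher in aTreg cells at an unadjusted p under 0.05, against 3.73% of all genes, and 50 (8.9%) were higher without overlap, against 4.10%. Of the 684, 59 were lower at that p, where 400 of all 13338 genes were, and 47 (6.87%) were lower without overlap, against 4.03%.

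Lgmn showed the difference with the smallest p. Its difference was -0.38 in aTreg cells, as above, and it rose from 46.04 ± 3.99 CPM in WT to 75.86 ± 9.36 CPM in KO thymic Treg cells (SD, n = 3 and n = 4; 0.72), a difference of -1.10 (SE 0.121, adjusted p 1.314e-05 by edgeR's test). Glrx, a glutaredoxin gene, was at 391.7 ± 26.4 and 334.6 ± 23.0 CPM in WT and KO aTreg cells (SD, n = 3 and n = 4) and at 48.67 and 77.83 CPM in thymic Treg cells, a difference of -0.90. Ctsz and Ly6a, which encodes the surface antigen Sca-1, differed by -0.62 and -1.14, and Syngr2, a vesicle protein gene that was flat in aTreg cells (-0.02), by -0.67.

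Of the 37 genes of activated Treg cells, 6 (16.2%) were among the 65, against 0.487% of all genes. Of the 17 myeloid markers, 2 (11.8%) were also among the 65, Itgam and Fcgr3. So were 2 of the 17 suppressive mediators (11.8%), Gzmb and Lgals1, which are also in the activated list. In thymic Treg cells, 21 of the 37 were called higher in KO libraries, where 562 of all 13338 genes were. Icos was -0.21 in aTreg and 0.48 in thymic Treg cells, Klrg1 -0.27 and 1.13, Gzmb -0.30 and 1.54, and Lgals1 -0.27 and 0.56. The other 2 of the 6 were Cxcr3, a chemokine receptor, with 0.05 and 1.19, and Maf, a transcription factor, with -0.08 and 0.75. In WT cells, thymic Treg against aTreg levels were 9.13 and 238.7 CPM for Klrg1, 11.36 and 176.3 CPM for Gzmb, 454.2 and 2014 CPM for Icos, and 177.7 and 437.2 CPM for Lgals1. Birc5 was -0.50 and 0.63. On the other side, Satb1, a chromatin organiser of early T cells, was -0.04 in aTreg and -0.52 in thymic Treg cells, and Rnf144a, a ubiquitin ligase gene, 0.54 and -0.40.

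Other values moved with the same contrast. The myeloid marker sum was lower in KO aTreg libraries, as above, and higher in KO thymic Treg libraries, at 516.0 to 1193 CPM against 330.1 to 466.8 CPM in WT, with KO libraries 1 and 2 highest. Reads outside genes made up 42.28% to 45.02% of those placed once in KO thymic Treg libraries and 46.31% to 49.29% in WT. The count of 113 fell to 55 with the myeloid and B cell marker sum as a covariate, to 13 with the percentage of reads outside genes as a covariate, and to 54 without thymic KO libraries 1 and 2. Lgmn, Glrx, Ctsz, Ly6a and Syngr2 were past the threshold in all 26 alternatives run for them.

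Single libraries also moved this count by more than 1.5 times. It was 186 without WT aTreg library 1, 44 without WT aTreg library 3, and 68, 72 and 74 without KO aTreg libraries 1, 2 and 4. Leaving out a thymic Treg library gave 58 and 30 for WT libraries 1 and 2, and 67, 182 and 197 for KO libraries 1, 2 and 4.

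**Figure D5:**
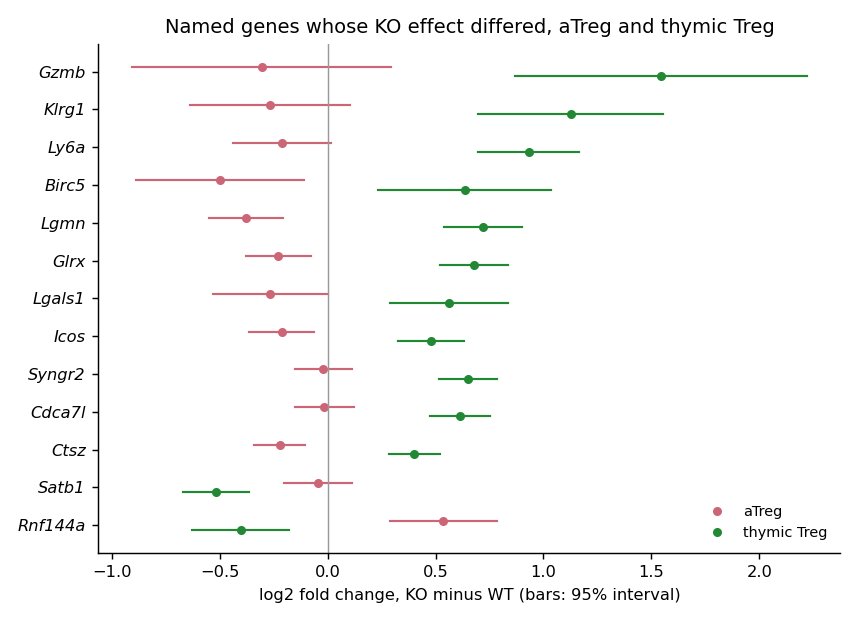
Log2 fold change of KO minus WT (x axis) with its 95% interval in aTreg (red) and thymic Treg cells (green) for the 13 named genes whose effects differed. The red values lie between -0.50 and 0.54, and 11 green values are above 0, while Satb1 and Rnf144a are below.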

How the data were processed

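Per the submitters' processing notes, reads were handled with Trimmomatic, STAR and HTSeq on the mm10 build, with no versions or settings given. RNA was amplified by the SMART method and sequenced in pairs, per the labels' protocols. The deposited values are raw read counts per gene, 1 file for each library, and the authors applied no normalization to them. Lines that name no gene (reads in no gene, ambiguous reads, reads mapped to several places) stayed out of library sizes and tests; of reads placed once, 44.97% to 47.67% in the aTreg libraries lay in no gene.

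Here the counts of all 28 libraries were fitted with edgeR 4.0.16 (R 4.3.3), with a mean for each of 8 groups, TMM factors, filterByExpr (13338 of 23420 genes kept) and the quasi-likelihood test with 20 residual degrees of freedom. P-values were adjusted by Benjamini-Hochberg over all genes kept, with a threshold of 0.05. Counting error is small at 22037995 to 31239148 gene counts for each aTreg library, and the biological coefficient of variation was 12.7%. The steps were tested on simulated data. Pairs of libraries of 1 group differed by 7.51 to 31.8 times the chi-square expected from counting, so none was the same library deposited again; separate amplifications of 1 RNA sample could differ as much. Positions were taken from GENCODE M21 (GRCm38) for 12521 genes by symbol and for 698 by an older symbol in RefSeq, and 119 genes had none.

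Genes were named by rule: Foxp3, the genes past the test, the 20 next by p with at least 5 CPM, the 3 members with the smallest p of each list, the 5 genes with the smallest p in each difference of effects, genes called in rTreg cells, non-overlapping genes within 1 Mb of Foxp3, markers and Kruppel-like factors. Others named in the text (among them Hspa1b, Fos, Rel, Ccl5, Lyz2, Csf1r, Eomes, Cxcr3 and Maf) were chosen after their values were seen. The comparison, its gene lists and markers were chosen with earlier results of these data known. Alternatives were DESeq2 1.42.0, limma-voom (limma 3.58.1), other scalings, filters and covariates, a replicate block and the removal of libraries.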

Additional observations from a re-analysis of the deposited data

Results flagged for a closer look

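In the 4 KO aTreg libraries, 1 library stood apart from the other 3 for 3 of 116 named genes, each time KO library 3, where chance gives about 1 in 20. Capn11, the calpain gene that fell, was at 0.0839 CPM in it and at 0 in the others, where any read would have set it apart. Selplg, the selectin ligand PSGL-1, was at 642.8 CPM against 579.0 to 588.5 CPM. Fyn, a kinase of T cell receptor signalling, was at 146.1 CPM against 163.4 to 164.7 CPM.

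The effect of the deletion differed between aTreg and thymic Treg cells for 13 named genes by edgeR's test of the difference. Lower values in aTreg cells were found for Lgmn (-1.10, adjusted p 1.314e-05), Glrx (-0.90, adjusted p 2.301e-05), Ctsz (-0.62, adjusted p 0.0001236), Ly6a (-1.14, adjusted p 0.0001965) and Syngr2 (-0.67, adjusted p 0.0001965). The same held for Icos (-0.69, adjusted p 0.0005486), Cdca7l (-0.63, adjusted p 0.0005486), Klrg1 (-1.40, adjusted p 0.01142) and Lgals1 (-0.83, adjusted p 0.02594). Gzmb (-1.85, adjusted p 0.03707) and Birc5 (-1.13, adjusted p 0.04037) lay nearest to the threshold. Higher values in aTreg cells were found for Rnf144a (0.94, adjusted p 0.004041) and Satb1 (0.47, adjusted p 0.02651).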

How the results depend on the processing

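The count of 4 genes in aTreg cells was 13 with DESeq2, 8 with limma-voom, 7 with only the 7 aTreg libraries (2 shared with the 4), 13 with the percentage of reads outside genes as a covariate, 8 with the handling list's sum without Klf6 and 1, a gene outside the 4, without KO libraries 3 and 4; leaving out 1 library gave 0 to 6. The difference from rTreg cells, with 0 genes, had 1 with DESeq2 and 0 to 1 when 1 library was left out. The difference from thymic Treg cells, with 113, had 340 with DESeq2, 287 with limma-voom, 263 with only its own libraries, 13 with the percentage of reads outside genes, 55 with the myeloid and B cell sum, 54 without thymic KO libraries 1 and 2, and 30 to 197 when 1 library was left out. All 17 markers passed in every setting. The difference in reads outside genes was -1.575 to -0.5605 percentage points when 1 library was left out.

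With the replicate block, the counts were 12 in aTreg cells, 1 for the difference from rTreg and 236 for the difference from thymic Treg cells. The labels do not say that a number marks a shared mouse, and the deviations of same-numbered WT and KO aTreg libraries correlated at 0.133, -0.0321 and 0.0369, so the numbers were not taken as pairs. Across populations, same-numbered libraries of a genotype correlated at 0.0584 to 0.232 between aTreg and rTreg and at 0.0582 to 0.173 between aTreg and thymic Treg cells, and 7 of 7 and 6 of 7 aTreg libraries correlated best with their own number, a hint from the data that the labels do not settle. A replicate block of genotype and number, added after seeing the data, gave 1 gene for the difference from rTreg and 323 for that from thymic Treg cells, which held all 113.

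Of 30 gene results under 605 gene-by-setting combinations, 547 kept their direction and side of the threshold, 26 lost and 32 gained the call, and 0 reversed. Capn11 and Klf6 passed in 10 of 19 settings, Fsd1l in 13, Dnahc7a in 17 and Foxp3 in 0. DESeq2 and limma-voom were among the settings in which Capn11 did not pass. The causes were not tested. For genes outside the 8938 whose 95% intervals lay within 1.5-fold, the spread between libraries leaves a change of that size possible.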

Other observations

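Plasma cell genes (5 tested, median 0.39) summed to 89.44 to 164.9 CPM in WT and 98.15 to 260.6 CPM in KO aTreg libraries, which overlap, and none passed the test. B cell genes (12 tested, median 0.07) summed to 108.2 to 140.9 and 126.0 to 149.3 CPM. Dendritic cell genes (13 tested, median -0.17) summed to 1112 to 1847 CPM in WT and 1150 to 1349 CPM in KO libraries, much of it from Cd74 and from Ccr9, which T cells also express.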
